A study of Homo sapiens with 11 samples.

Results

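The Kruppel-like factors (KLF) are transcription factors of one gene family, and 10 of them are described here in MDA-MB-231 cells: KLF2, KLF3, KLF4, KLF5, KLF6, KLF7, KLF9, KLF10, KLF11 and KLF13. They were found in the expression table as the rows whose Ensembl identifier, without its version, maps to those symbols, which gave 10 of 37247 rows. The symbols were chosen with earlier results of the same comparison known, so the 10 genes were selected on their log2 fold changes as well as their family name. Their values in that comparison are therefore given as a description, with no p-value.

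MDA-MB-231 is an established human line from a breast cancer without hormone receptors. The libraries compared are 3 of RNA from cells labelled H2AS40-KD, with the genotype given as a knockdown of the S40 type of histone H2A, and 3 labelled Control-KD, with the genotype given as wild type. All 6 came from the same line, grown in serum, and the labels give neither the knockdown reagent nor its time. Nothing in the labels tells whether replicates are separate cultures, and p-values then measure a spread between libraries that may be technical. The question set by the series is how gene expression differs with that knockdown. The 5 chromatin immunoprecipitation and input samples of the series were not analysed here.

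KLF proteins bind DNA through a run of C2H2 zinc fingers at the carboxyl end, which is much alike in all members, and recognise GC-rich and CACCC elements. The amino-terminal part differs and sets the role: KLF3, with KLF8 and KLF12, recruits the corepressor CtBP, while KLF9, KLF10, KLF11, KLF13, KLF14 and KLF16 bind the corepressor SIN3A. KLF2, KLF4, KLF5, KLF6 and KLF7 act largely as activators, though KLF4 can also repress. Several of them are induced quickly and briefly by serum, stress or cytokines, and in breast cancer cells KLF4, KLF5 and KLF6 have been studied for their part in growth and differentiation.

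Promoter sequence is shown for members that stood higher in every library labelled H2AS40-KD, so that their make-up can be seen beside the values. It is also shown for KLF9, whose groups overlapped. The groups of KLF2, KLF5, KLF7 and KLF13 overlapped too, but their windows are not printed. KLF9 had the lowest GC content of the member windows, so the printed set is no contrast between higher and other members. Windows from 250 bases before to 50 bases after a start site were read from RefSeq (GRCh38.p14), where 8 of the 10 members matched, with 13 windows in all. KLF3 and KLF10 are named without sequence. Capitals mark GGGCGG (the GC box) and CACCC, each searched on both strands.
KLF4, chr9:107489720-107490019, minus strand: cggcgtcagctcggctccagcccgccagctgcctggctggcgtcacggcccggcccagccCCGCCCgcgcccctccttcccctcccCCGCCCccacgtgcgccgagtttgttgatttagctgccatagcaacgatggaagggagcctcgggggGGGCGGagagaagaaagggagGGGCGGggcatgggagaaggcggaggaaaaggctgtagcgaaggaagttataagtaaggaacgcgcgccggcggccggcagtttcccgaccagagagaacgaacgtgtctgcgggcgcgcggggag
KLF6, chr10:3785160-3785459, minus strand: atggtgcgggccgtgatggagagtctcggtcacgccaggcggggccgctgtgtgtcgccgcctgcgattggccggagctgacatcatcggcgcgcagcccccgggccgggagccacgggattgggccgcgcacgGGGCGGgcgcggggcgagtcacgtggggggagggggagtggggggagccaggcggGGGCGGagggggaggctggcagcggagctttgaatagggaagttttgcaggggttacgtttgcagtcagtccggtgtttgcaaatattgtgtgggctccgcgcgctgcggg
KLF11, upstream start, chr2:10043579-10043878, plus strand: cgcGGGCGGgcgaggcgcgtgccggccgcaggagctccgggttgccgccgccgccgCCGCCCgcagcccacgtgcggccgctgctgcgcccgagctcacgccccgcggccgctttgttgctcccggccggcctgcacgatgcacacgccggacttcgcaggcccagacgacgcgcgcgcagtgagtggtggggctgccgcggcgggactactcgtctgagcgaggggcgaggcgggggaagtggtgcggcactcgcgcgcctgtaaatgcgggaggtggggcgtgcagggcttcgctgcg
KLF11, downstream start, chr2:10043971-10044270, plus strand: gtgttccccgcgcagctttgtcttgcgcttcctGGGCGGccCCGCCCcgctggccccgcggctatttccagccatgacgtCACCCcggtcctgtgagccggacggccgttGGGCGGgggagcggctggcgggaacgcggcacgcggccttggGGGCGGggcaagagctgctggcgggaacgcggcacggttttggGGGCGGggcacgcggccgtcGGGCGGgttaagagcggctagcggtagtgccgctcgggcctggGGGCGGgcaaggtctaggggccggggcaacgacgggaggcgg
KLF9, chr9:70414608-70414907, minus strand: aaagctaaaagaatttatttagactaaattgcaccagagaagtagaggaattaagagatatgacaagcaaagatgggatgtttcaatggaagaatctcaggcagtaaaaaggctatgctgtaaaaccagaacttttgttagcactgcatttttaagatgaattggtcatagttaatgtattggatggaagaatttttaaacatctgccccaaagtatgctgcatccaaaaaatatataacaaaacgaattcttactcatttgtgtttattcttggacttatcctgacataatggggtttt

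The KLF4 window was 69.0% G or C and held 4 GC boxes, and the KLF6 window was 70.7% G or C with 2. The KLF11 windows were 77.3% and 75.3% G or C, with 2 GC boxes at the upstream start and 7 at the downstream one. That downstream window also held 1 TGACGTCA, the cyclic AMP response element, whose last bases overlap the CACCC beside it. The KLF9 window was 32.7% G or C, with 2.35% of windows lower, and neither motif was in it. Over all 35116 windows of the same length, the median was 58.7% G or C, 45.0% held GGGCGG, 59.9% held CACCC and 1.85% held TGACGTCA. Among the 13 member windows, 8 held GGGCGG, 7 held CACCC, 1 held TGACGTCA, 1 held TATAAA (a KLF5 window, against 11.5% of all windows) and 1 held a CArG box, the site of serum response factor (a KLF7 window, against 1.29%). High GC content was not limited to members whose groups were apart: KLF2 and KLF13, whose groups overlapped, had windows of 80.7% and 78.3% G or C. These matches describe the letters in a window and are not evidence of binding.

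Expression was deposited as transcripts per 1000000 (TPM), reads divided by gene length and scaled to the same total in each library, so levels can be set side by side between genes but the sequencing depth is unknown. Between 14097 and 14120 genes reached 1 TPM in the libraries labelled H2AS40-KD, and between 14073 and 14112 in Control-KD. Control-KD replicate 3 was far from the rest: its first principal component score was -31.2 (29.6% of the variance), while the other 5 libraries scored -0.784 to 12.0. The labels name no target gene. Of the H2A genes with serine at residue 40 by general knowledge, H2AC25 had 33.3, 34.8 and 32.6 TPM with the H2AS40-KD label and 32.4, 33.5 and 31.3 TPM in Control-KD, and H2AC7 was listed between 0 and 0.968 TPM with the H2AS40-KD label and between 0 and 2.97 TPM in Control-KD. Only H2AC25 and H2AC7 were looked at, and H2AC7 was listed at 0 in libraries of both groups. Whether other H2A genes fell was not examined. These values do not show the knockdown, so each direction below is one between labels. The line's markers also went partly against its label. VIM, the mesenchymal filament vimentin, had 2263 to 2281 TPM in the libraries labelled H2AS40-KD and 2247 to 2277 TPM in Control-KD. GATA3, a luminal transcription factor that this line is described as having little of, had 436 to 459 TPM with the H2AS40-KD label and 460.4 to 471 TPM in Control-KD. The epithelial cadherin CDH1 had 57.0 to 60.0 TPM with the H2AS40-KD label and 56.8 to 64.8 TPM in Control-KD, and the oestrogen receptor ESR1 had 16.4 to 21.2 TPM with the H2AS40-KD label and 12.3 to 19.5 TPM in Control-KD. Of 7 luminal or epithelial markers all passed the filter for testing (1 TPM in 3 or more libraries) and 0 were called by limma at an adjusted p of 0.05, with summed levels of 801 to 837 TPM in the libraries labelled H2AS40-KD and 802 to 841 TPM in Control-KD. Of 8 mesenchymal or basal markers, S100A4 and CAV1 were called lower, as were 0.742% of all tested genes. CD44, EGFR and AXL were not called, but with S100A4 and CAV1 made 5 of the 8 whose libraries labelled H2AS40-KD all lay below Control-KD, against 11.3% of all tested genes. The 8 had sums of 8813 to 8893 TPM with the H2AS40-KD label and 9051 to 9130 TPM in Control-KD. Among the 8 were the epithelial keratins KRT8 and KRT18, so these sums do not measure mesenchymal genes alone. KRT8 averaged 3549 TPM with the H2AS40-KD label and 3587 TPM in Control-KD, and KRT18 averaged 2248 and 2281 TPM. Blood cell markers summed to 0.896 to 1.59 TPM with the H2AS40-KD label and 1.27 to 2.23 TPM in Control-KD, and 1 of 5 passed the filter. The part of these markers in the results was not tested, and in bulk RNA fewer cells of a type and less RNA per cell cannot be told apart.

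All 10 KLF genes were expressed in all 6 libraries, with the lowest value at 2.93 TPM. They spanned from about 3 TPM for KLF9 to over 100 TPM for KLF10 and KLF6. In the libraries labelled H2AS40-KD the order of mean TPM was KLF10, KLF6, KLF4, KLF5, KLF11, KLF3, KLF2, KLF13, KLF7 and KLF9, and the ranges of neighbours overlapped for KLF11 with KLF3 and for KLF3 with KLF2. In Control-KD the order was KLF6, KLF10, KLF4, KLF5, KLF3, KLF11, KLF2, KLF13, KLF7 and KLF9, with overlap for each neighbouring pair from KLF3 to KLF7. KLF10 and KLF6, which changed places, did not overlap in either group.

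**Figure D1:**
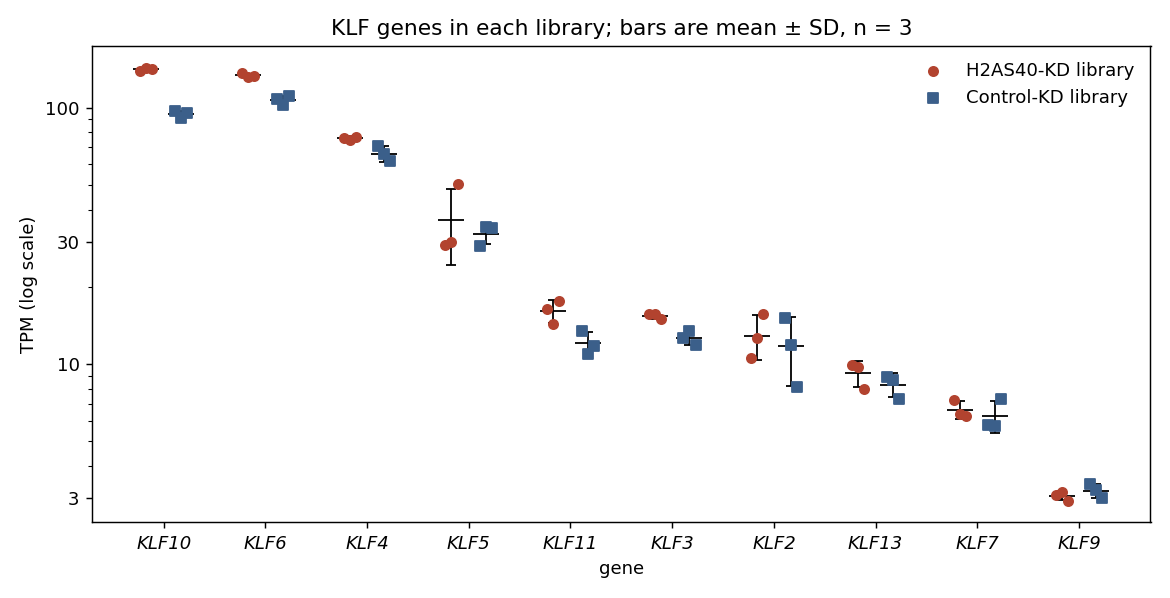
Each point is the level of a KLF gene in 1 library, in TPM on a log scale, with the libraries labelled H2AS40-KD (circles) left of Control-KD (squares) and bars giving the mean ± SD of 3 libraries. KLF10 lies at 139 to 143 TPM in the libraries labelled H2AS40-KD, above all Control-KD libraries at 91.1 to 96.8 TPM, while the groups of KLF2, KLF5, KLF7, KLF9 and KLF13 overlap.

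In the libraries labelled H2AS40-KD, 9 of the 10 genes had a higher mean on the log2(TPM + 1) scale than in Control-KD, and 1, KLF9, a lower one. For 5 of them, KLF3, KLF4, KLF6, KLF10 and KLF11, every library labelled H2AS40-KD lay above every Control-KD library, which was also the case for 12.9% of the 14160 tested genes, those with at least 1 TPM in at least 3 libraries. The median log2 fold change of the 10 was 0.18, beside 0.01 over all tested genes, of which 53.1% were positive. In a limma fit across all tested genes, with Benjamini-Hochberg adjustment and a threshold of 0.05, 2 of the 10, KLF10 and KLF6, were among the genes called higher. This count describes the choice of genes and is no test of them. Of all tested genes 1.26% were called in either direction and 0.516% were called higher, and 16.5% had an unadjusted p below 0.05. Because the genes were chosen with this contrast in view, nothing is read from these counts.

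KLF10, first described as an early gene of transforming growth factor beta and a repressor that binds SIN3A, had the largest log2 fold change of the 10. The gene (ENSG00000155090.14) lies on chromosome 8 of GRCh38.p14 from 102648784 to 102655725. It had 139, 143 and 142 TPM under the H2AS40-KD label and 96.8, 91.1 and 95.4 TPM in Control-KD. Every library labelled H2AS40-KD lay above every Control-KD library, in the contrast on which the gene was chosen. KLF10 averaged 141 ± 1.95 TPM with the H2AS40-KD label and 94.4 ± 2.96 TPM in Control-KD (SD, n = 3 each). That is 49.6% higher, with a log2 fold change of 0.58 (SE 0.0379). Of all tested genes, 1.31% had a larger log2 fold change. Leaving out any 1 library gave log2 fold changes from 0.55 to 0.59.

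KLF11, the closest relative of KLF10 and likewise a SIN3A-binding repressor (ENSG00000172059.10), lies on chromosome 2 from 10043550 to 10054836. It had 16.4, 14.3 and 17.7 TPM with the H2AS40-KD label and 13.5, 10.9 and 11.8 TPM in Control-KD. The groups did not overlap, but replicate 2 labelled H2AS40-KD lay close to Control-KD replicate 1. KLF11 averaged 16.1 ± 1.72 TPM with the H2AS40-KD label and 12.1 ± 1.29 TPM in Control-KD (SD, n = 3 each). Its log2 fold change was 0.39 (SE 0.109). KLF10 was the more abundant of the pair by 8.84 ± 1.05 times in the libraries labelled H2AS40-KD and by 7.86 ± 0.602 times in Control-KD (SD, n = 3 each). The ranges of that ratio overlapped between groups.

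KLF13 and KLF9, which also bind SIN3A, were low and their groups overlapped. KLF13, known from the control of the chemokine CCL5 in T cells, had 9.94, 9.72 and 8.01 TPM under the H2AS40-KD label and 8.92, 8.69 and 7.28 TPM in Control-KD, a log2 fold change of 0.14 (SE 0.119). KLF9, a gene induced by glucocorticoid and thyroid hormone, had 3.10, 3.18 and 2.93 TPM with the H2AS40-KD label and 3.39, 3.22 and 3.0 TPM in Control-KD. Its log2 fold change was -0.05 (SE 0.118), the only negative one among the 10.

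KLF6, an activator first found by its binding to GC boxes, was the most abundant KLF gene in Control-KD. It (ENSG00000067082.14) lies on chromosome 10 from 3775996 to 3785209. It had 136, 132 and 133 TPM under the H2AS40-KD label and 108, 102 and 110.4 TPM in Control-KD. All values of the first group were above all of the second. KLF6 averaged 133 ± 2.26 TPM with the H2AS40-KD label and 107 ± 4.46 TPM in Control-KD (SD, n = 3 each). That is 24.8% higher, with a log2 fold change of 0.32 (SE 0.0419). Leaving out any 1 library gave log2 fold changes from 0.28 to 0.34.

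KLF10 and KLF6 differed in how far they stood apart, which also shows in their ratio, a quantity that scaling of a library cannot change. These genes and KLF4 were chosen on this contrast, so the ratios restate their fold changes and add no support. KLF10 divided by KLF6 was 1.02, 1.08 and 1.07 in the libraries labelled H2AS40-KD and 0.893, 0.894 and 0.863 in Control-KD. KLF10 was thus above KLF6 in all 3 libraries labelled H2AS40-KD and below it in all 3 of Control-KD. The mean ratio was 1.06 ± 0.0321 with the H2AS40-KD label and 0.883 ± 0.0172 in Control-KD (SD, n = 3 each). The ratio of KLF10 to KLF4 was 1.86 ± 0.0460 with the H2AS40-KD label and 1.43 ± 0.0994 in Control-KD (SD, n = 3 each), again with no overlap.

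**Figure D2:**
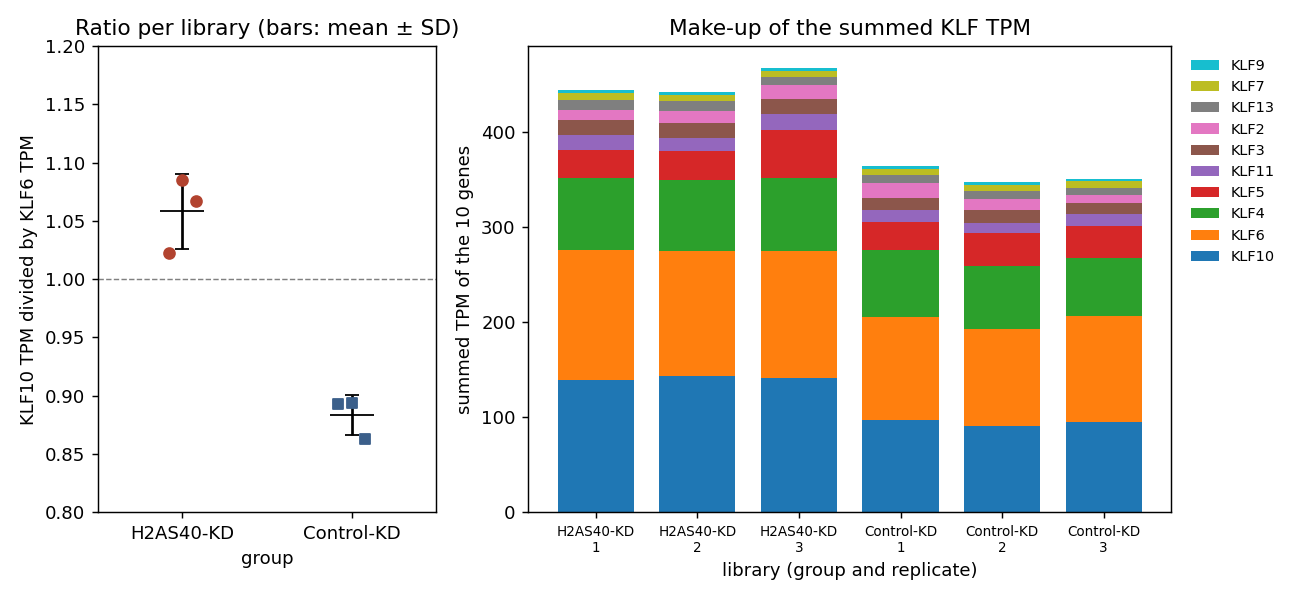
Left, the TPM of KLF10 divided by that of KLF6 in each library, with bars giving the mean ± SD of 3 libraries and a dashed line at 1; the axis starts above 0. Right, the summed TPM of the 10 KLF genes in each library, divided by gene, which lies between 441 and 467 TPM with the H2AS40-KD label and between 347 and 364 TPM in Control-KD.

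KLF4 and KLF2 are close relatives that share targets in the endothelium, where flow induces both through the kinase ERK5 and MEF2 factors. KLF4 (ENSG00000136826.14), also a reprogramming factor, lies on chromosome 9 from 107484852 to 107489769. It had 76.3, 74.9 and 77.0 TPM under the H2AS40-KD label and 70.6, 66.0 and 61.6 TPM in Control-KD. The groups were apart by a small margin, and Control-KD spread more. The log2 fold change was 0.20 (SE 0.0560), or 0.15 without Control-KD replicate 3. KLF2 had 10.5, 12.6 and 15.6 TPM with the H2AS40-KD label and 15.2, 11.9 and 8.16 TPM in Control-KD. Its groups covered nearly the same range, with a log2 fold change of 0.15 (SE 0.223) that was -0.07 without Control-KD replicate 3.

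KLF5, an activator that promotes growth in epithelial cells, had a fold change that turned on 1 library. It had 29.1, 29.8 and 50.2 TPM under the H2AS40-KD label and 28.9, 34.1 and 33.8 TPM in Control-KD. Replicate 3 labelled H2AS40-KD was above every other library, and the remaining pair in its group lay within the Control-KD range. The log2 fold change was 0.13 (SE 0.201), and -0.12 without that library. KLF7, an activator known from the nervous system and the gene most like KLF6, had 7.24, 6.39 and 6.27 TPM with the H2AS40-KD label and 5.78, 5.73 and 7.33 TPM in Control-KD. The highest value was in Control-KD, and the log2 fold change was 0.07 (SE 0.123).

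KLF3, the CtBP-binding repressor among the 10 (ENSG00000109787.12), lies on chromosome 4 from 38664199 to 38701517. It had 15.7, 15.6 and 14.9 TPM under the H2AS40-KD label and 12.6, 13.5 and 11.9 TPM in Control-KD. The groups did not overlap. KLF3 averaged 15.4 ± 0.439 TPM with the H2AS40-KD label and 12.7 ± 0.815 TPM in Control-KD (SD, n = 3 each). Its log2 fold change was 0.27 (SE 0.0763).

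Because the 10 genes were chosen on this contrast, their sum and its shares are a description and add no support. The 10 genes summed to 443, 441 and 467 TPM with the H2AS40-KD label and 364, 347 and 351 TPM in Control-KD. KLF10, KLF6 and KLF4 together made up 77.9 ± 2.31% of that sum in the libraries labelled H2AS40-KD and 75.6 ± 0.835% in Control-KD (SD, n = 3 each). The share of KLF10 alone was 31.4 ± 1.04% with the H2AS40-KD label and 26.7 ± 0.478% in Control-KD (SD, n = 3 each), without overlap between groups. The share of KLF4 was 16.9 ± 0.358% with the H2AS40-KD label and 18.7 ± 0.962% in Control-KD (SD, n = 3 each), so KLF4 took a smaller part of the sum while its own TPM was higher. The share of KLF6 was 29.6 ± 1.15% with the H2AS40-KD label and 30.2 ± 1.13% in Control-KD (SD, n = 3 each), and its ranges overlapped.

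Of the 8 other KLF genes, 3 passed the filter, and limma called 0 of them; 2 had an unadjusted p below 0.05, against 16.5% of all tested genes. KLF16, another SIN3A-binding repressor, was the most abundant of them, at 58.5, 54.7 and 61.2 TPM under the H2AS40-KD label and 46.0, 47.6 and 26.2 TPM in Control-KD. Its groups did not overlap, but Control-KD replicate 3 lay far below the other 2. The log2 fold change of 0.58 (SE 0.210) equalled that of KLF10 with a much larger error (limma adjusted p = 0.247), and was 0.31 without that library (limma adjusted p = 0.0883). KLF15, an activator of amino acid breakdown in muscle and liver, had 5.83 ± 0.850 TPM with the H2AS40-KD label and 4.42 ± 0.397 TPM in Control-KD (SD, n = 3 each, limma adjusted p = 0.289). KLF12, a CtBP-binding repressor, had 5.43 ± 0.594 TPM with the H2AS40-KD label and 6.03 ± 0.458 TPM in Control-KD (SD, n = 3 each, limma adjusted p = 0.621). KLF1, KLF8, KLF14 and KLF17 stayed below 1 TPM in every library, and KLF18 was listed at 0. A further 10 rows with KLF symbols are pseudogenes, 6 of them listed at 0 throughout and none above 0.164 TPM, so those rows held little of the family signal.

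The SP factors, which carry the same kind of zinc fingers and bind the same GC boxes, gave 0 calls by limma among 6 tested, and 0 had an unadjusted p below 0.05. SP3 had 63.8 ± 2.85 TPM in the libraries labelled H2AS40-KD and 64.2 ± 1.58 TPM in Control-KD (SD, n = 3 each, limma adjusted p = 0.949). SP1, the founding member, had 38.4 ± 2.56 TPM with the H2AS40-KD label and 37.0 ± 0.948 TPM in Control-KD (SD, n = 3 each, limma adjusted p = 0.736), and SP2 had 31.0 ± 1.83 TPM with the H2AS40-KD label and 29.7 ± 6.30 TPM in Control-KD (SD, n = 3 each, limma adjusted p = 0.825). The low genes SP4, SP5 and SP6 averaged 2.85, 3.20 and 4.57 TPM with the H2AS40-KD label and 3.30, 2.21 and 4.09 TPM in Control-KD, and had limma adjusted p-values of 0.833, 0.309 and 0.734. For SP5 every library labelled H2AS40-KD lay above every Control-KD library, which was also the case for 12.9% of all tested genes. Its log2 fold change was 0.40, and 0.26 without Control-KD replicate 3. SP7, SP8 and SP9 did not pass the filter. Without Control-KD replicate 3, which was the lowest Control-KD library for SP2, SP5 and SP6, the log2 fold changes of SP2 and SP6 were -0.07 and -0.04, where they were 0.08 and 0.15 with it. SP3 and SP4 also changed sign under some of the other settings.

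**Figure D3:**
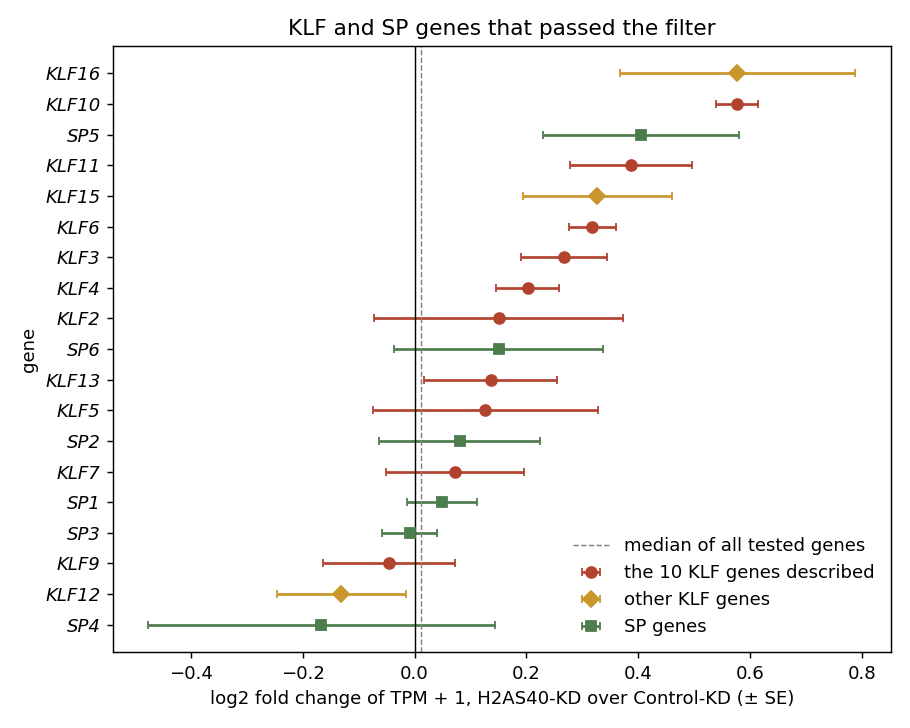
Log2 fold changes of TPM + 1, libraries labelled H2AS40-KD over Control-KD, with the standard error of the limma fit, for the 10 KLF genes (circles), other KLF genes (diamonds) and SP genes (squares) that passed the filter. KLF10 and KLF6 have the narrowest bars among the higher KLF genes, KLF16 matches KLF10 at 0.58 with a wider bar, and SP1 and SP3 lie near the median of all tested genes (dashed line).

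The proteins that KLF factors recruit were not called. Of 15 tested corepressors and coactivators, limma called 0, 2 had an unadjusted p below 0.05 (16.5% over all tested genes), and the list median was -0.00 on the log2 scale, beside 0.01 over all tested genes. SIN3A, the partner of KLF10 and KLF11, had the smallest p of the list, with 28.8 ± 0.888 TPM with the H2AS40-KD label and 26.1 ± 0.995 TPM in Control-KD (SD, n = 3 each, limma adjusted p = 0.299). The 8 tested genes for turnover of KLF proteins also gave 0 calls by limma. Their median log2 fold change was 0.09, and 2 had an unadjusted p below 0.05, against 16.5% over all tested genes. FBXO32, a ubiquitin ligase subunit reported to act on KLF4, had the smallest p, with 45.2 ± 3.43 TPM with the H2AS40-KD label and 35.9 ± 2.92 TPM in Control-KD (SD, n = 3 each, limma adjusted p = 0.122).

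Signals known to induce KLF genes gave 0 calls by limma among 16 tested genes. Their median log2 fold change was -0.03, and 2 had an unadjusted p below 0.05, where 16.5% of all tested genes did. This list held the kinases and MEF2 factors upstream of KLF2 and KLF4, the hormone receptors upstream of KLF9, and the transforming growth factor beta pathway upstream of KLF10 and KLF11. TGFBR2, a receptor of that pathway beside TGFBR1, had the smallest p, with 42.5 ± 0.720 TPM in the libraries labelled H2AS40-KD and 47.3 ± 0.669 TPM in Control-KD (SD, n = 3 each, limma adjusted p = 0.161).

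Early-response transcription factors, which share quick induction with KLF4, KLF6 and KLF10, included called genes. Like the other gene lists here, this list was chosen with earlier results of these data known. The counts and p-values of the lists are therefore a description and no independent support. Of 16 tested, 2 rose in the libraries labelled H2AS40-KD and 0 fell by limma. The median log2 fold change was 0.27, 14 were positive, and 8 had an unadjusted p below 0.05. Over all tested genes the median was 0.01, 53.1% were positive, 0.516% were called higher and 16.5% had an unadjusted p below 0.05. EGR1, a zinc-finger factor induced by growth signals, had 55.3, 56.1 and 58.4 TPM with the H2AS40-KD label and 44.2, 44.9 and 43.2 TPM in Control-KD, a log2 fold change of 0.35 (SE 0.0455, limma adjusted p = 0.0223). FOSL1, an AP-1 subunit, had 276, 269.9 and 288 TPM with the H2AS40-KD label and 228, 231 and 223 TPM in Control-KD, a log2 fold change of 0.29 (SE 0.0344, limma adjusted p = 0.0182). Both calls were lost on leaving out any 1 library other than Control-KD replicate 3. Without that library 3 of the list were called. The list summed to 1166 to 1194 TPM with the H2AS40-KD label and 862 to 1041 TPM in Control-KD, where replicate 3 was the lowest.

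Genes reported as targets of KLF factors in other settings gave 1 rise and 0 falls by limma among 17 tested. The median log2 fold change was 0.11, and 7 had an unadjusted p below 0.05, beside 0.516% called higher and 16.5% below 0.05 over all tested genes. CYP1A1, whose promoter element was the site by which KLF9 was first cloned in the rat, had 126, 129 and 130.2 TPM under the H2AS40-KD label and 85.2, 84.2 and 87.8 TPM in Control-KD (log2 fold change 0.58, SE 0.0360, limma adjusted p = 0.00363). KLF9 itself was not higher, with a log2 fold change of -0.05, and whether any KLF factor acts on CYP1A1 here was not tested. One gene of this list, NOS3 of the endothelium, passed the filter through the libraries labelled H2AS40-KD alone. Among 6 tested glucocorticoid-responsive genes, chosen as company for KLF9, NFKBIA rose, with 115 ± 3.48 TPM with the H2AS40-KD label and 90.5 ± 2.19 TPM in Control-KD (SD, n = 3 each, limma adjusted p = 0.0182), and 0 fell. NFKBIA, an inhibitor of NF-kappaB, also responds to inflammatory signals, and its call too was lost without any 1 library other than Control-KD replicate 3. The list's other 5 tested genes were not called. Its median log2 fold change was 0.17, 6 of 6 were positive, 5 lay wholly above Control-KD (12.9% of all tested genes did), and 4 had an unadjusted p below 0.05 (16.5% of all tested genes).

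**Figure D4:**
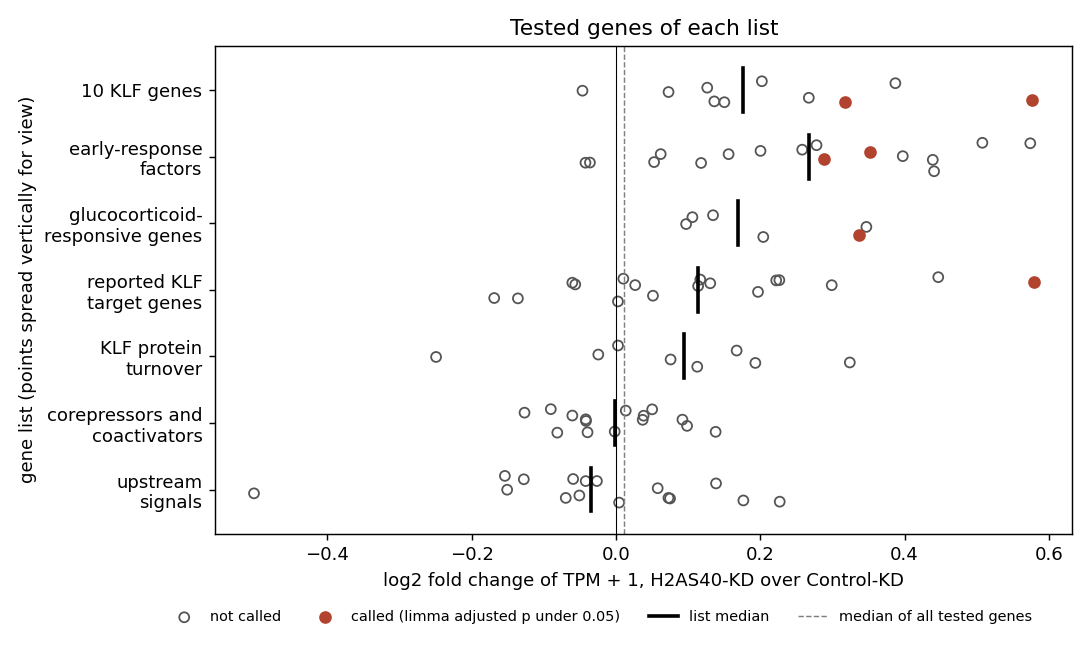
Each point is the log2 fold change of TPM + 1, libraries labelled H2AS40-KD over Control-KD, of 1 tested gene in a list, filled where limma called it; short lines are list medians and the dashed line is the median of all tested genes. The medians are 0.18 for the 10 KLF genes, 0.27 for early-response factors, and -0.00 for corepressors and coactivators.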

How the data were processed

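Gene-level TPM of 6 RNA-seq libraries were deposited by the authors, and each library summed to 1000000. Which tool made them is not given in the sources here; hg38, Bowtie2 and MACS2 are named without a role, per the submitters' processing notes. TPM keep no depth, so no counting interval is given, and the number of libraries limits the precision. Identifiers were matched to symbols for 34436 of 37247 genes. Coordinates and promoter sequence are from RefSeq (GRCh38.p14).

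The filter kept 14160 genes that reached 1 TPM in 3 or more of the 6 libraries. log2(TPM + 1) was fitted with limma 3.58.1 in R 4.3.3 (lmFit, eBayes with a trend), with two-sided p-values adjusted after Benjamini and Hochberg across the filtered genes; fold changes on this scale understate those of low genes. Members, gene lists and alternatives were chosen with earlier results of these data known. All members were named, with other KLF and SP genes at a mean of 1 TPM or more, and in each other list up to 3 called genes or the one with the smallest p. At most 0.113% of tested genes had identical values in 2 libraries.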

Additional observations from a re-analysis of the deposited data

How the results depend on the processing

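The alternatives were other pseudocounts, filters and scalings, a fit without a variance trend, a replicate term, and each library left out in turn; removal of a gene-span trend was chosen after seeing the data. Across these 15 settings 8 or 9 of the 10 KLF genes stayed higher in the libraries labelled H2AS40-KD, and KLF3, KLF4, KLF6, KLF7, KLF10, KLF11 and KLF13 kept a positive sign in each. No setting moved the median of all tested genes by over 0.1. Over all tested genes 178 were called, against 98 with no filter and 10 without the trend. Leaving out Control-KD replicate 3 gave 156 calls, and leaving out any 1 other library gave 5 to 29. Calls among the KLF genes numbered 2, against 1 without the trend and 1 to 2 without 1 library. The call of KLF6 was lost without the trend and on leaving out any 1 library other than Control-KD replicate 3. The median log2 fold change of the KLF genes ran from 0.17 to 0.26 without 1 library. The KLF genes were chosen on this contrast, so their signs, calls and medians across settings describe that choice and test nothing. The early-response factors had 2 calls, against 0 without the trend and 0 to 3 without 1 library. The reported targets had 1, against 2 at a filter of 5 TPM, and the glucocorticoid-responsive genes 1, against 0 without the trend and 0 to 1 without 1 library. Fits without a library hold fewer samples, the same number in each. The cause of the differences was not tested. Under the replicate block 0 of all tested genes were called, and so 0 among the KLF genes, the early-response factors, the reported targets and the glucocorticoid-responsive genes. The same-numbered libraries did not deviate together (correlations of -0.0101, -0.0642 and -0.00154), so the numbers are not taken as pairs.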

Other observations

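Among 10698 tested genes outside the 10, with a symbol and a mean of at least 5 TPM, those whose log2(TPM + 1) followed KLF10 most closely over the 6 libraries were CXCL8, the neutrophil-attracting chemokine (Pearson r = 0.999), ERRFI1, a feedback inhibitor of the EGF receptor (0.998), and NQO1, a quinone reductase (0.997). CXCL8 had 29.4, 31.0 and 31.2 TPM with the H2AS40-KD label and 19.1, 18.0 and 19.2 TPM in Control-KD. For KLF6 the closest was NR1D1, a repressor of the circadian clock (0.999), with 92.5 TPM in the libraries labelled H2AS40-KD and 64.3 TPM in Control-KD on average. For KLF5 it was SH3GLB1 (0.988), with 61.8, 63.5 and 74.7 TPM under the H2AS40-KD label and 63.6, 65.7 and 65.8 TPM in Control-KD, so the high value in replicate 3 was shared. For the other members the closest was SGMS2 (KLF2, 0.985), ARGLU1 (KLF3, 0.996), WASH9P (KLF4, 0.997), AASDH (KLF7, 0.992), UBE2D1 (KLF9, 0.994), MOV10 (KLF11, 0.997) and RNF146 (KLF13, 0.990). These likenesses rest on 6 libraries that share their group difference, and the highest of so many candidates is high in any case. Among the 10 themselves, KLF10 went most closely with KLF6 (0.983) and KLF2 least with KLF7 (-0.755).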
